A study of Homo sapiens with 11 samples.

Results

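The genes described here encode the substrate receptors of cullin-RING ubiquitin ligases known as DCAFs (DDB1- and CUL4-associated factors) and as SOCS-box proteins, with the adaptor DDB1. They were taken from the deposited gene table as protein-coding genes whose symbol starts with DCAF, ASB, SOCS or SPSB followed by a digit, with CISH, VHL, CRBN, DDB1 and DDB2 added by name. The rule found 53 genes of the 58735 listed (19951 of them protein-coding): 19 DCAF genes, 18 ASB genes, 8 SOCS genes including CISH, 4 SPSB genes, and DDB1, DDB2, VHL and CRBN. The rule used names only and no measured value.

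Messenger RNA was sequenced from HEK293T, a human embryonic kidney line that carries the SV40 large T antigen, in 4 groups. Control libraries (n = 3) carry the label control siRNA, and the methods name a non-targeting siRNA as the negative control, with no dose given for it in the sources used here. The deposited treatment protocol lists only the 3 targeting products, and if the control cells were not transfected, transfection and target cannot be told apart, above all in changes shared by the 3 knockdowns. The knockdown libraries were made 48 h after transfection: siNAE1 was given at 50 nM in 3 samples, siUBE2M at 70 nM in 3 samples and siURM1 at 60 nM in 2 samples. Each target was addressed by 1 product, at a dose that differed between targets, and dose, product and target cannot be told apart. Total counts per library ran from 11733163 to 16321391. Expression is given as CPM (counts scaled by the TMM-adjusted library total) between libraries of 1 gene, and as the deposited FPKM, which divides by gene length, between genes.

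A cullin-RING ligase is built on a cullin that holds a RING protein at one end and an adaptor with an exchangeable receptor at the other. CUL4A and CUL4B use the adaptor DDB1 and receptors called DCAFs, while CUL2 and CUL5 use elongins B and C and receptors with a VHL box or a SOCS box, as in the ASB, SOCS and SPSB families. The ligases are switched on by attachment of the ubiquitin-like protein NEDD8 to the cullin, for which NAE1 with UBA3 is the E1 enzyme and UBE2M the main E2 enzyme. URM1 is another ubiquitin-like protein, which also carries sulfur for tRNA modification, and the study asked how the transcriptomes of cells depleted of NAE1, UBE2M or URM1 compare. The SOCS genes and CISH are known as STAT-induced inhibitors of cytokine receptor signalling, and human DDB2 as a p53 target.

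Promoter letters are shown for CISH, which like SOCS3 was called higher in both siNAE1 and siURM1, and for DDB2, which was lower in all 3 knockdowns, since both genes are known to answer to a transcription factor with a recognisable motif. The sequences are from RefSeq (GRCh38.p14), 5′ to 3′ on the strand of the gene. CISH is shown from -250 to -1 of its start (chr3:50611775-50612024, minus strand), with each match to the GAS motif TTCNNNGAA, which STAT proteins bind, in capitals. DDB2 is shown from -100 to +30 (chr11:47214874-47215003, plus strand), with the GAS match and then 2 matches to the p53 decamer motif in capitals.
CISH: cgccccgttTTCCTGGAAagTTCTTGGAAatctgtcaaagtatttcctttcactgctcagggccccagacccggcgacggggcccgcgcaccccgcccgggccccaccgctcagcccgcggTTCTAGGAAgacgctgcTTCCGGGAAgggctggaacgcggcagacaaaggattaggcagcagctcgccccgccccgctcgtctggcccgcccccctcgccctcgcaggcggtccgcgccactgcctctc
DDB2: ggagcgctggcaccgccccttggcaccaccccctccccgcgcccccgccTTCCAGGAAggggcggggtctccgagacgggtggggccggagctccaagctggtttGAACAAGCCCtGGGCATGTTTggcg

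The CISH window held 4 GAS matches, starting at -241, -230, -129 and -112, and the DDB2 window held 1, starting at -51. Both motifs were searched on both strands in windows from 250 bases before to 50 after the start. A GAS match was present in 7.66% of the 35116 promoters of the table. Of the 43 member genes found in it, 4 had a match in any of their promoters (CISH, DDB2, ASB15 and ASB17). The p53 decamer was present in 6.63% of all promoters and in any promoter of 6 of the 43 genes (ASB10, ASB18, DCAF17, DCAF8, DDB2 and SPSB2). The shares are per promoter and the member counts per gene, so they are not in the same unit. In DDB2 its matches lay at +6 to +15 and +17 to +26. The windows of SOCS1 and SOCS3 held no GAS match. A match describes letters only, and factor binding was not measured.

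The targeted genes were lower in the libraries labelled for them. NAE1 was at 1638, 1775 and 1569 counts in control and 542, 609 and 392 in siNAE1 libraries (log2 fold change -1.36 ± 0.08 SE). The log2 fold change of UBE2M was -3.98 in siUBE2M and that of URM1 was -1.80 in siURM1. Of the marker genes of the line, VIM, KRT18, NEFM and PAX2 were detected in every library, while ALB, AFP, APOA1, APOB, TTR, KRT5 and KRT14 were near or at 0. In bulk RNA, fewer cells expressing a gene and less of its RNA per cell cannot be told apart.

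Of the 53 receptor genes, 40 had enough counts to be tested. The other 13 were ASB2, ASB4, ASB5, ASB9, ASB10, ASB11, ASB15, ASB17, DCAF4L2, DCAF8L1, DCAF8L2, DCAF12L1 and DCAF12L2. No library held more than 3 counts of 8 of them, the limit taken as the floor of detection, and ASB17, DCAF8L2, DCAF12L1 and DCAF12L2 had 0 counts in all 11 libraries. The highest count of an untested member was 13, for DCAF8L1. Tested were 14 of 19 DCAF genes, 10 of 18 ASB genes, all 8 SOCS genes, all 4 SPSB genes, and DDB1, DDB2, VHL and CRBN.

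In control cells the FPKM of members ranged over orders of magnitude: 12 members reached at least 10, 19 lay from 1 to 10 and 22 lay under 1. VHL, the receptor that captures hydroxylated HIF alpha subunits, was highest at 54.8 ± 2.16 FPKM (SD, n = 3). DCAF7 at 28.2 ± 1.35, DDB1 at 27.9 ± 1.20, DCAF12 at 26.2 ± 1.84 and DCAF16 at 25.1 ± 1.22 followed, each within the spread of the next. The highest ASB gene was ASB13 (16.8 ± 0.235), the highest SOCS gene SOCS4 (10.8 ± 0.334) and the highest SPSB gene SPSB4 (2.64 ± 0.279). CRBN, the receptor bound by thalidomide and its analogs, stood at 4.89 ± 0.124 FPKM.

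The order among the abundant genes depended on the length used. The deposited length joins all exons of a gene, 13950 bases for DDB1 against 4245 in its canonical GENCODE transcript. Per kilobase of canonical transcript, the control level of DDB1 was 92.6 ± 4.34 CPM, above VHL (52.8 ± 2.32), DCAF13 (38.1 ± 2.30), DCAF12 (32.3 ± 2.31) and DCAF7 (29.6 ± 1.53). DDB1, as the adaptor shared by all DCAFs, was then the most abundant member. CISH, SOCS3 and SOCS1 were low on either scale, at 0.331, 0.321 and 0.183 FPKM in control.

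Each knockdown was compared with control in 1 edgeR quasi-likelihood fit of 18368 genes. A gene was called when its Benjamini-Hochberg adjusted p was under 0.05 and its log2 fold change was 1 or more in size. In siNAE1 cells 4 of the 40 members were called, CISH, SOCS3, DCAF4L1 and SPSB3, against 13.9% of all genes tested. In siUBE2M cells DCAF4L1 was the 1 member called, against 7.11% of all genes, and in siURM1 cells 3 were called, CISH, SOCS3 and SOCS1, against 7.62%. All of these calls were higher than control, and all concerned genes under 1 FPKM in control. Tested against the fold threshold itself (glmTreat), only CISH in siNAE1 and DCAF4L1 in siUBE2M were called, and the 18 alternatives counted below are the other fits. The share of members called (10% in siNAE1, 2.5% in siUBE2M and 7.5% in siURM1) was below or near that of all genes.

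At an adjusted p under 0.05 without a fold threshold, 15 members were higher and 10 lower in siNAE1, against 27.6% higher and 27.1% lower among all genes. In siUBE2M 15 were higher and 9 lower, against 22.7% and 22.6%. In siURM1 11 were higher and 9 lower, against 20.8% higher and 20.8% lower. With libraries scaled by total counts only, which lowered the median log2 fold change of all genes to -0.127, -0.0498 and -0.111 in the 3 knockdowns, the splits were 13 and 12, 11 and 12, and 8 and 13. The median log2 fold change of members was 0.16, 0.03 and 0.02, beside -0.0021, 0.0075 and -0.02 for all genes. The 3 comparisons share the control libraries.

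**Figure D1:**
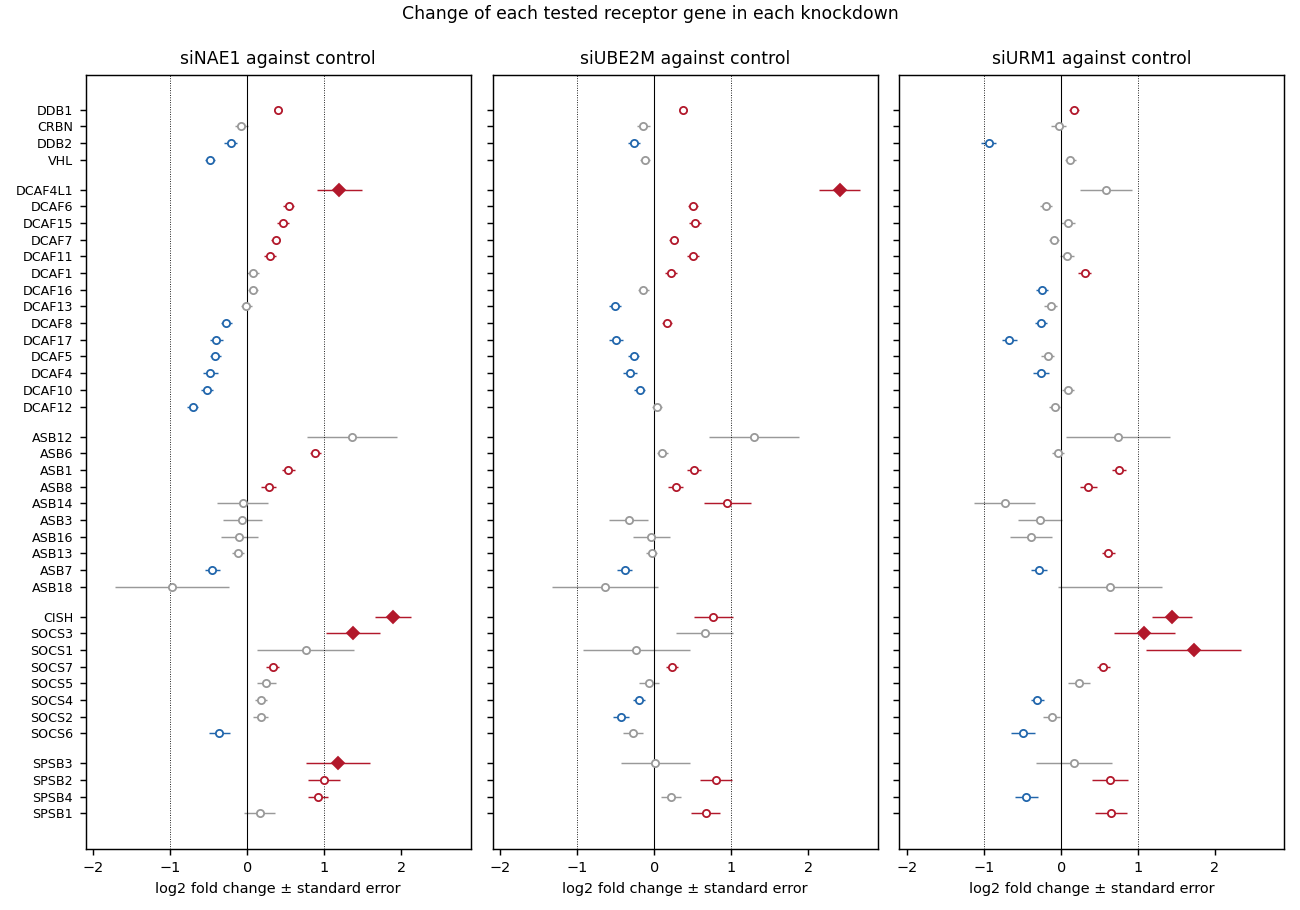
Log2 fold change against control with its standard error for the 40 tested genes in siNAE1, siUBE2M and siURM1. Filled diamonds mark called genes, open red and blue circles adjusted p under 0.05 (higher, lower), and grey circles the rest. Called genes lie only to the right, while the abundant DCAF genes stay between the dotted lines at -1 and 1.

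In all 3 knockdowns 6 members were higher (ASB1, ASB8, CISH, DDB1, SOCS7 and SPSB2) and 4 were lower (ASB7, DCAF4, DCAF17 and DDB2) at an adjusted p under 0.05, against 9.3% higher and 9.62% lower in all 3 among all genes tested. Of the 40, 34 passed in at least 1 knockdown, against 74% of all genes. ASB3, ASB12, ASB16, ASB18, CRBN and SOCS5 passed in none.

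DDB1, the adaptor of the CUL4 ligases, was modestly higher in every knockdown. Control libraries held 404, 372 and 403 CPM, siNAE1 libraries 508, 517 and 525, siUBE2M libraries 516, 501 and 509, and siURM1 libraries 459 and 421. No knockdown library overlapped the control range. The log2 fold changes were 0.40 ± 0.06, 0.37 ± 0.06 and 0.16 ± 0.06 (SE; adjusted p 4.63e-07, 2.09e-06 and 0.036), the last losing significance without control replicate 2 or siURM1 replicate 1 (adjusted p up to 0.351 over the alternatives), at a minimum of 10 counts in every library and with library size scaling. Both siNAE1 and siUBE2M lay above siURM1, by 0.23 and 0.21 on the log2 scale (adjusted p 0.00399 and 0.00989), and without siURM1 replicate 2 both differences missed the threshold (adjusted p 0.115 and 0.197).

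DDB2, which finds UV-damaged DNA and whose promoter letters are shown above, moved the other way. Its control libraries held 52.5, 51.3 and 48.9 CPM and its siURM1 libraries 26.1 and 26.9. In siNAE1 it stood at 43.6, 41.0 and 46.9 CPM and in siUBE2M at 40.2, 42.6 and 44.8. All knockdown libraries lay below all control libraries, and those of siURM1 lowest. Its log2 fold change was -0.94 ± 0.09 in siURM1 (adjusted p 1.03e-09), just short of the fold threshold, and it was called when libraries were scaled by size only. In siNAE1 and siUBE2M it was -0.22 ± 0.08 and -0.26 ± 0.08 (adjusted p 0.0217 and 0.00812). The siNAE1 value was not significant without a filter on low counts or without control replicate 1 or 2 or siNAE1 replicate 1 or 2 (adjusted p up to 0.113), nor the siUBE2M value without siUBE2M replicate 1 (adjusted p 0.0608). DDB2 was higher in siNAE1 than in siURM1 by 0.72 ± 0.10 and in siUBE2M than in siURM1 by 0.68 ± 0.09 (adjusted p 2.82e-07 and 9.12e-07).

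VHL was lower in siNAE1. Counts were 4055, 3712 and 3583 in control and 2228, 2256 and 1911 in siNAE1, or 245, 228 and 226 CPM against 171, 158 and 171. The siUBE2M libraries held 218, 211 and 214 CPM and the siURM1 libraries 239 and 268. The log2 fold change was -0.48 ± 0.06 in siNAE1 (adjusted p 5.91e-08), -0.12 ± 0.06 in siUBE2M (adjusted p 0.111) and 0.12 ± 0.07 in siURM1 (adjusted p 0.158). VHL was lower in siNAE1 than in siUBE2M (-0.36 ± 0.06, adjusted p 1.29e-05) and than in siURM1 (-0.60 ± 0.07, adjusted p 1.62e-08). CRBN passed no threshold, with log2 fold changes of -0.08 ± 0.09, -0.14 ± 0.08 and -0.03 ± 0.09 (adjusted p 0.428, 0.18 and 0.804). TRNT1 overlaps 35.6% of CRBN exon bases on the opposite strand and was higher by 0.39 in siNAE1, and an opposite-strand gene not analysed here overlaps 23.5% of those of VHL.

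**Figure D2:**
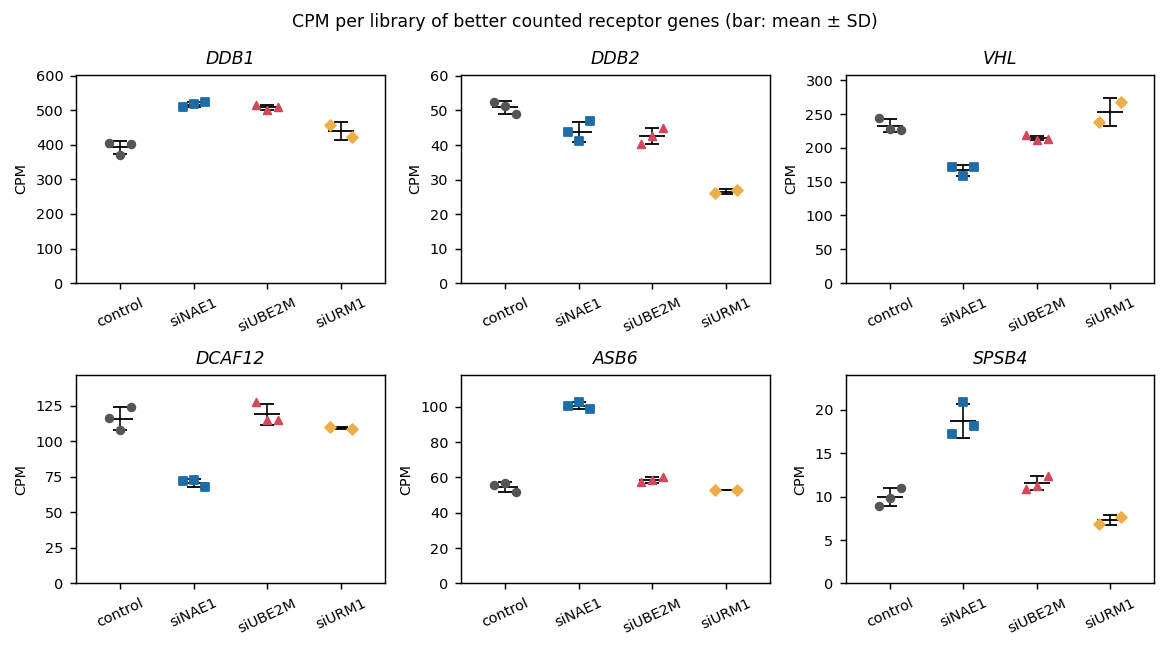
CPM per library of 6 better counted members, with mean and SD as bars (control, siNAE1 and siUBE2M n = 3, siURM1 n = 2). DDB1 rises and DDB2 falls in every knockdown, VHL, DCAF12 and ASB6 part from control in siNAE1, and SPSB4 is high in siNAE1 and low in siURM1.

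Of the 14 tested DCAF receptors, many of them WD-repeat proteins that dock on DDB1, 5 were higher and 6 lower in siNAE1 (35.7% and 42.9%, all genes 27.6% and 27.1%). In siUBE2M 7 were higher and 5 lower (50% and 35.7%, all genes 22.7% and 22.6%). In siURM1 DCAF1 was higher and DCAF4, DCAF8, DCAF16 and DCAF17 lower (7.14% and 28.6%, all genes 20.8% each way). DCAF7, a scaffold for the DYRK1A kinase and the highest DCAF in control by deposited FPKM though not per canonical transcript length, held 193, 176 and 192 CPM in control, 233, 248 and 242 in siNAE1, 230, 226 and 214 in siUBE2M, and 180 and 171 in siURM1. The siNAE1 and siUBE2M libraries lay above the control ones, and siURM1 overlapped them. The log2 fold changes were 0.37 ± 0.06, 0.25 ± 0.06 and -0.09 ± 0.07 (adjusted p 4.4e-06, 0.000764 and 0.291).

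DCAF6, DCAF11 and DCAF15 were also higher in siNAE1 and siUBE2M than in control. They are named, with DCAF5, DCAF8, DCAF10, DCAF12, DCAF13, ASB6 and SOCS2, after their values were seen. DCAF6 rose by 0.54 ± 0.07 in siNAE1 and 0.50 ± 0.07 in siUBE2M and stood at -0.19 ± 0.08 in siURM1 (adjusted p 8.66e-08, 4.12e-07 and 0.051). DCAF15, through which indisulam directs splicing factor RBM39 to degradation, rose by 0.46 ± 0.08 and 0.53 ± 0.08 and stood at 0.09 ± 0.09 in siURM1 (adjusted p 0.446). DCAF11 rose by 0.29 ± 0.08 and 0.50 ± 0.08 and stood at 0.08 ± 0.09 (adjusted p 0.514), and it was lower in siNAE1 than in siUBE2M (-0.21, adjusted p 0.0232, up to 0.0854 without siNAE1 replicate 1 or 2 or siUBE2M replicate 1 or 3). Its siNAE1 value missed the threshold with library size scaling (adjusted p 0.0619). All 4 of these genes were higher in siNAE1 than in siURM1 and in siUBE2M than in siURM1, by 0.22 to 0.73 and 0.35 to 0.70 on the log2 scale (adjusted p at most 0.0457). The smallest of these differences, DCAF11 in siNAE1 against siURM1, missed the threshold in 16 of 18 alternatives.

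DCAF5 and DCAF10 went the other way in the same knockdowns. DCAF5 held 74.8, 72.1 and 78.8 CPM in control, 55.2, 55.3 and 58.6 in siNAE1 and 66.4, 61.9 and 59.1 in siUBE2M, a log2 fold change of -0.42 ± 0.07 and -0.27 ± 0.07. DCAF10 held 63.5, 63.1 and 68.8 CPM in control, 45.5, 44.1 and 46.0 in siNAE1 and 56.4, 60.0 and 54.8 in siUBE2M, a log2 fold change of -0.53 ± 0.08 and -0.19 ± 0.07. The siNAE1 and siUBE2M libraries of both genes lay below the control range. In siURM1 DCAF5 stood at -0.18 ± 0.08, with its libraries below control, and DCAF10 at 0.09 ± 0.08, overlapping control (adjusted p 0.0789 and 0.396). The siUBE2M value of DCAF10 (adjusted p 0.0348) was lost without a filter on low counts, without any 1 of the control libraries and without siUBE2M replicate 1 or 3 (adjusted p up to 0.175).

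Other DCAF genes separated siNAE1 from siUBE2M. DCAF12, which recognises C-terminal acidic degrons, held 116, 108 and 124 CPM in control and 71.8, 72.7 and 67.5 in siNAE1. In siUBE2M it held 128, 115 and 115 CPM and in siURM1 110 and 109. Only in siNAE1 did all libraries lie outside the control range. DCAF12 fell by 0.71 ± 0.07 on the log2 scale in siNAE1 (adjusted p 3.08e-10), and siNAE1 lay below siUBE2M by 0.75 ± 0.07 (adjusted p 2.49e-10) and below siURM1 by 0.63 ± 0.08 (adjusted p 9.22e-08). DCAF13, which works in ribosomal RNA processing, was lower in siUBE2M (-0.51 ± 0.08, adjusted p 1.66e-06) and stood at -0.01 ± 0.08 in siNAE1 (adjusted p 0.902), with a difference of 0.50 ± 0.08 between them (adjusted p 2.95e-06).

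DCAF8 was lower in siNAE1 and siURM1 and higher in siUBE2M. It held 101, 104 and 95.2 CPM in control, 81.3, 85.2 and 82.1 in siNAE1, 115, 114 and 109 in siUBE2M, and 78.2 and 89.2 in siURM1. The siUBE2M libraries lay above and the others below the control range. The log2 fold changes were -0.27 ± 0.07, 0.17 ± 0.07 and -0.26 ± 0.08 (adjusted p 0.0011, 0.0397 and 0.0064). The siUBE2M value missed the threshold with library size scaling, without a filter on low counts, and without control replicate 1 or 3 or siUBE2M replicate 1 or 2 (adjusted p up to 0.178), and the siURM1 value without siURM1 replicate 1 (adjusted p 0.212).

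DCAF17, mutated in Woodhouse-Sakati syndrome, and DCAF4 were lower throughout. DCAF17 held 51.4, 48.6 and 54.6 CPM in control, 43.8, 36.6 and 36.4 in siNAE1, 38.8, 37.6 and 33.1 in siUBE2M, and 33.2 and 31.4 in siURM1, with no knockdown library in the control range. Its log2 fold changes were -0.40 ± 0.09, -0.50 ± 0.09 and -0.67 ± 0.10 (adjusted p 0.000232, 2.11e-05 and 1.79e-06). METTL8, on the opposite strand over 1.68% of DCAF17 exon bases, was also lower, by 0.50, 0.62 and 0.47 on the log2 scale. DCAF4 had log2 fold changes of -0.48 ± 0.10, -0.31 ± 0.09 and -0.26 ± 0.10 (adjusted p 7.46e-05, 0.00655 and 0.0466). The siURM1 value of DCAF4 lost significance in 11 of 18 alternatives, DESeq2 among them (adjusted p up to 0.213), and the siUBE2M value without control replicate 1 or siUBE2M replicate 2 (adjusted p up to 0.0665).

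DCAF4L1, a copy of DCAF4 on chromosome 4 (chr4:41981696-41986467), rose while DCAF4 fell. Its counts were 18, 29 and 14 in control, 41, 34 and 35 in siNAE1, 104, 110 and 74 in siUBE2M, and 27 and 30 in siURM1. In CPM this was 1.09, 1.78 and 0.883, then 3.15, 2.38 and 3.14, then 7.66, 7.21 and 5.20, then 1.68 and 2.08. The siNAE1 and siUBE2M libraries lay above the control range and siURM1 overlapped it. DCAF4L1 changed by 2.41 ± 0.27 on the log2 scale in siUBE2M (adjusted p 6.52e-09), 1.19 ± 0.29 in siNAE1 (adjusted p 0.000867) and 0.58 ± 0.34 in siURM1 (adjusted p 0.173). The value in siUBE2M exceeded that in siNAE1 by 1.22 ± 0.24 (siNAE1 minus siUBE2M -1.22, adjusted p 0.000123) and that in siURM1 by 1.83 ± 0.29 (adjusted p 7.99e-06). These calls stood in all 18 alternatives. The DCAF4L1 transcript is 82.9% identical to DCAF4 over 1553 aligned bases, with no exact stretch longer than 46 bases. Sequenced reads were longer than that stretch, and whether any fragments were assigned to the other gene was not tested.

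Of the 8 SOCS genes, 2 were called in siNAE1 (25%, all genes 13.9%), 0 in siUBE2M (all genes 7.11%) and 3 in siURM1 (37.5%, all genes 7.62%). At an adjusted p under 0.05 without the fold threshold, 3 of the 8 were higher and 1 lower in siNAE1 (37.5% and 12.5%, all genes 27.6% and 27.1%). In siUBE2M 2 were higher and 2 lower (25% each way, all genes 22.7% and 22.6%). In siURM1 4 were higher and 2 lower (50% and 25%, all genes 20.8% each way). CISH (chr3:50606490-50611831), an inhibitor of STAT5 signalling, had 26, 33 and 24 counts in control, 73, 85 and 84 in siNAE1, 49, 40 and 36 in siUBE2M, and 76 and 65 in siURM1. Its CPM was 1.57, 2.03 and 1.51 in control, 5.61, 5.94 and 7.54 in siNAE1, 3.61, 2.62 and 2.53 in siUBE2M, and 4.74 and 4.50 in siURM1. Every knockdown library lay above every control library.

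The log2 fold change of CISH was 1.89 ± 0.24 in siNAE1 (adjusted p 3.73e-08), 0.77 ± 0.25 in siUBE2M (adjusted p 0.0134) and 1.44 ± 0.26 in siURM1 (adjusted p 3.69e-05). The calls in siNAE1 and siURM1 stood in all 18 alternatives, while the siUBE2M value lost significance without siUBE2M replicate 1 (adjusted p 0.0901). CISH was higher in siNAE1 than in siUBE2M by 1.12 ± 0.22 on the log2 scale (adjusted p 0.000108, at most 0.00137 over the alternatives), a difference that slipped to 0.997, under the fold threshold, without siNAE1 replicate 3. It was lower in siUBE2M than in siURM1 (-0.67 ± 0.25, adjusted p 0.0361, lost in 6 alternatives). MAPKAPK3 overlaps 4.31% of CISH exon bases on the opposite strand at a control mean of 813.3 counts, and it was higher by 0.65, 0.37 and 0.94 on the log2 scale. Its part in the CISH counts was not tested.

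SOCS3 (chr17:78356778-78360077), which inhibits gp130 receptors and JAK kinases, had 12, 14 and 17 counts in control, 36, 25 and 27 in siNAE1, 21, 18 and 21 in siUBE2M, and 24 and 33 in siURM1. Each knockdown library exceeded each control library in CPM. Its log2 fold change was 1.37 ± 0.36 in siNAE1 (adjusted p 0.00154), 0.65 ± 0.37 in siUBE2M (adjusted p 0.156) and 1.08 ± 0.39 in siURM1 (adjusted p 0.0265). The siNAE1 call stood in all 18 alternatives. The siURM1 call was lost with DESeq2, with library size scaling, and without control replicate 1, control replicate 2 or siURM1 replicate 2 (adjusted p up to 0.273).

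SOCS1 (chr16:11254405-11256200), a JAK inhibitor, rested on few counts, 3, 4 and 9 in control, 7, 12 and 3 in siNAE1, 5, 3 and 4 in siUBE2M, and 23 and 11 in siURM1. In CPM both siURM1 libraries (1.44 and 0.762) lay above the control range (0.181 to 0.568), as did siNAE1 replicate 2 (0.839), and the other siNAE1 and all siUBE2M libraries overlapped it. The log2 fold change in siURM1 was 1.72 ± 0.62 (adjusted p 0.0249), and siUBE2M lay below siURM1 by 1.95 ± 0.65 (adjusted p 0.0179). The first call was lost with DESeq2 and without control replicate 1, control replicate 2 or siURM1 replicate 1 (adjusted p up to 0.339). The second was lost with DESeq2 and without siUBE2M replicate 2 or siURM1 replicate 1 (adjusted p up to 0.278).

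**Figure D3:**
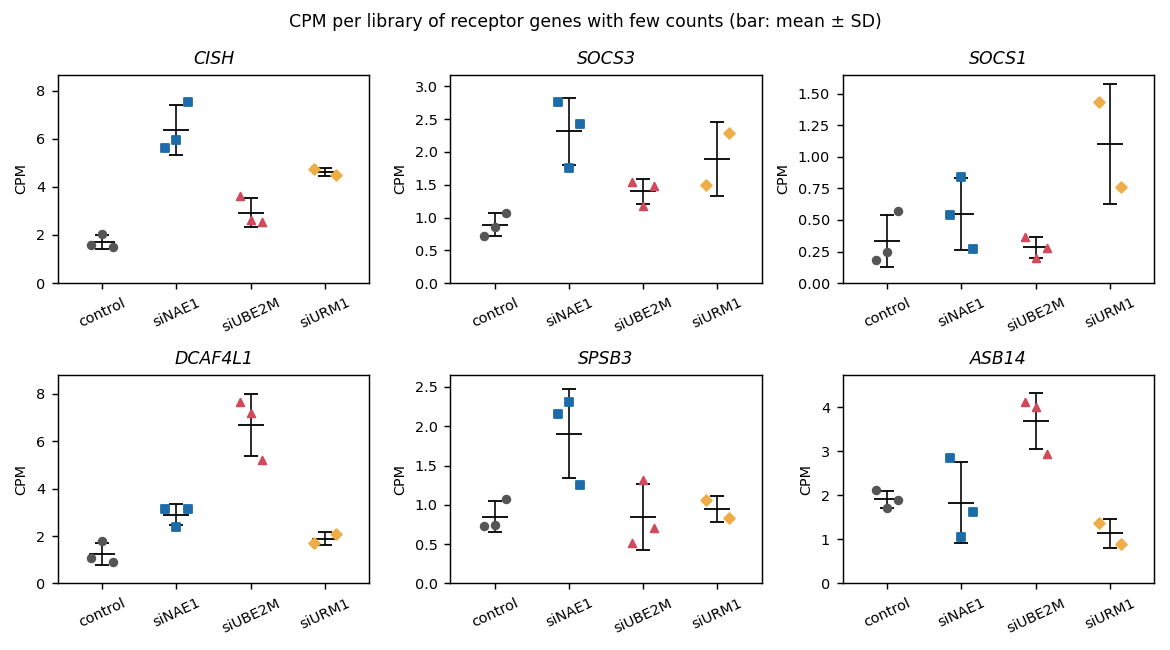
CPM per library of 6 members with few counts, with mean and SD as bars (control, siNAE1 and siUBE2M n = 3, siURM1 n = 2). CISH and SOCS3 are above control in all knockdown libraries, SOCS1 in both siURM1 libraries and 1 of siNAE1, and DCAF4L1 and ASB14 are highest in siUBE2M.

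None of the better expressed SOCS genes was called in any comparison. SOCS7 held 48.6, 48.3 and 49.7 CPM in control and rose by 0.33 ± 0.08, 0.23 ± 0.08 and 0.55 ± 0.09 on the log2 scale (adjusted p 0.00101, 0.0202 and 7.27e-06), the siUBE2M value missing the threshold with library size scaling or without siUBE2M replicate 1 or 2 (adjusted p up to 0.0946). SOCS4, the highest in control at 74.7, 78.0 and 78.4 CPM, was lower in siUBE2M (-0.20 ± 0.08, adjusted p 0.0356, up to 0.181 in the 5 alternatives that left out control replicate 1, 2 or 3 or siUBE2M replicate 2 or 3) and siURM1 (-0.31 ± 0.09, adjusted p 0.00514). In siNAE1 it held 94.1, 91.0 and 75.9 CPM, overlapping control (0.18 ± 0.08, adjusted p 0.0517). SOCS2, which limits growth hormone signalling, was lower in siUBE2M (-0.43 ± 0.10, adjusted p 0.00107) and lay 0.60 ± 0.11 higher in siNAE1 than in siUBE2M (adjusted p 2.08e-05). SOCS2-AS1, on the opposite strand over 4.28% of SOCS2 exon bases, was lower in siNAE1 (-1.01) and siUBE2M (-0.73).

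The summed FPKM of the 8 SOCS genes was 25.1 ± 0.974 in control, 29.5 ± 2.48 in siNAE1, 23.6 ± 1.5 in siUBE2M and 26.4 ± 0.492 in siURM1.

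The SPSB genes, whose SPRY domain captures substrates such as inducible nitric oxide synthase, had a summed FPKM of 5.51 ± 0.053 in control, 9.61 ± 0.404 in siNAE1, 7.65 ± 0.792 in siUBE2M and 6.32 ± 0.137 in siURM1. The libraries of each knockdown lay above all control libraries in this sum. In siNAE1 3 of the 4 genes were higher (SPSB2, SPSB3 and SPSB4; all genes 27.6%), in siUBE2M 2 (SPSB1 and SPSB2, all genes 22.7%), and in siURM1 2 were higher (SPSB1 and SPSB2) and SPSB4 lower (all genes 20.8% each way).

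SPSB4, the main SPSB gene, held 8.94, 9.90 and 11.0 CPM in control, 17.2, 20.9 and 18.1 in siNAE1, 10.9, 11.3 and 12.4 in siUBE2M, and 6.86 and 7.69 in siURM1. The siNAE1 libraries lay above and the siURM1 libraries below the control range. The log2 fold changes were 0.92 ± 0.13 (adjusted p 2.06e-07), 0.22 ± 0.13 (adjusted p 0.181) and -0.45 ± 0.15 (adjusted p 0.0181). The siURM1 value missed the threshold without control replicate 3 or siURM1 replicate 1 (adjusted p up to 0.17). SPSB4 was the 1 member called between siNAE1 and siURM1, by 1.37 ± 0.15 (adjusted p 9.04e-09), in all 18 alternatives.

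SPSB2 held 3.74, 3.57 and 2.52 CPM in control, 6.07, 6.92 and 6.64 in siNAE1, 4.57, 5.57 and 6.95 in siUBE2M, and 4.37 and 5.89 in siURM1. No knockdown library fell in the control range. The log2 fold changes were 0.99 ± 0.21, 0.80 ± 0.21 and 0.64 ± 0.23 (adjusted p 0.000139, 0.00214 and 0.0265). The siURM1 value missed the threshold with DESeq2, with library size scaling, and without control replicate 3 or siURM1 replicate 2 (adjusted p up to 0.294). On the opposite strand, 3 genes overlap SPSB2, which had a control mean of 53.3 counts. LRRC23 (9.3% of SPSB2 exon bases, 124 counts) was lower, with log2 fold changes of -1.44, -0.55 and -0.58. RPL13P5 (9.3%, 7.667 counts) was higher, by 1.68, 1.64 and 1.36, as was TPI1 (0.571%, 9591 counts), by 0.84, 0.27 and 0.55. Their part in the SPSB2 counts was not tested.

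SPSB3, a receptor for nuclear cGAS, had 12, 12 and 17 counts in control, 28, 33 and 14 in siNAE1, 7, 20 and 10 in siUBE2M, and 17 and 12 in siURM1. In CPM the siNAE1 libraries lay above control (2.15, 2.31 and 1.26 against 0.725, 0.738 and 1.07), and the other groups overlapped it. SPSB3 had a log2 fold change in siNAE1 of 1.18 ± 0.42 (adjusted p 0.0165), and siNAE1 exceeded siUBE2M by 1.17 ± 0.42 (adjusted p 0.0243). Without control replicate 1 or 2 or siNAE1 replicate 1 or 2 the call against control was lost (adjusted p up to 0.0752). The call against siUBE2M was lost with DESeq2 and without siNAE1 replicate 1 or 2 or siUBE2M replicate 1 or 3 (adjusted p up to 0.116). EME2, at a control mean of 782 counts and a log2 fold change of 0.49 in siNAE1, overlaps 66.9% of SPSB3 exon bases on the opposite strand, and the strand setting of the counting is not stated, so the SPSB3 counts are uncertain.

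The ASB genes, which pair ankyrin repeats with the SOCS box, had 3 of 10 tested genes higher (30%) and 1 lower (10%) in each knockdown, against 20.8% to 27.6% and 20.8% to 27.1% of all genes, and none was called against control. ASB1 and ASB8 were higher and ASB7 lower in all 3. ASB1 held 35.6, 32.8 and 33.8 CPM in control, 54.3, 49.2 and 44 in siNAE1, 50.1, 51.6 and 44.3 in siUBE2M, and 59.3 and 55.6 in siURM1. The knockdown libraries all exceeded the control libraries, with log2 fold changes of 0.53 ± 0.09, 0.52 ± 0.09 and 0.75 ± 0.09 (adjusted p 4.12e-06, 9.8e-06 and 8.04e-08).

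ASB8 had log2 fold changes of 0.28 ± 0.10, 0.28 ± 0.10 and 0.35 ± 0.11 (adjusted p 0.0178, 0.0203 and 0.00838). With library size scaling the siNAE1 and siUBE2M values of ASB8 missed the threshold. They also did so without siNAE1 replicate 2 or 3 and without control replicate 2 or 3 or siUBE2M replicate 3 respectively, as did the siURM1 value without siURM1 replicate 1 (adjusted p up to 0.19). ASB7 had -0.45 ± 0.09, -0.38 ± 0.09 and -0.29 ± 0.10 (adjusted p 0.00013, 0.001 and 0.0261), the last lost without control replicate 2 or 3 or either siURM1 library (adjusted p up to 0.181).

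ASB13 and ASB6 each changed in 1 knockdown. ASB13, the highest ASB gene, held 51.8, 49.9 and 50.7 CPM in control and 82.9 and 72.2 in siURM1, a log2 fold change of 0.61 ± 0.08 (adjusted p 4e-07). It overlapped control in siNAE1 and siUBE2M (-0.12 ± 0.08 and -0.04 ± 0.08) and was lower in both than in siURM1, by 0.74 ± 0.08 and 0.65 ± 0.08 (adjusted p 2.29e-08 and 2.57e-07). ASB6 held 55.6, 56.8 and 51.5 CPM in control and 100, 103 and 98.8 in siNAE1, a log2 fold change of 0.88 ± 0.07 (adjusted p 2.35e-12). The siNAE1 libraries lay above all other libraries, with differences of 0.78 ± 0.07 from siUBE2M and 0.92 ± 0.08 from siURM1 (adjusted p 9.32e-11 and 6.51e-11). NTMT1, on the opposite strand over 20.1% of ASB6 exon bases, was higher by 0.78 in siNAE1, and its part in the ASB6 counts was not tested.

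ASB14 had 35, 28 and 30 counts in control, 37, 15 and 18 in siNAE1, 56, 61 and 42 in siUBE2M, and 22 and 13 in siURM1. The siUBE2M libraries lay above and the siURM1 libraries below control in CPM, and siNAE1 overlapped it. The log2 fold changes were -0.06 ± 0.33, 0.95 ± 0.30 and -0.73 ± 0.39 (adjusted p 0.888, 0.0108 and 0.134). ASB14 was higher in siUBE2M than in siURM1 by 1.68 ± 0.37 (adjusted p 0.000629, in all 18 alternatives) and lower in siNAE1 than in siUBE2M (-1.01 ± 0.31, adjusted p 0.00903). The latter call was lost without siNAE1 replicate 2 or 3 or siUBE2M replicate 1 or 2, and adjusted p reached 0.0803. APPL1 overlaps 9.14% of its exon bases on the opposite strand, at 1731 counts in control, and fell by 0.61 on the log2 scale in siNAE1.

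Compared with each other, 4 members were called for siNAE1 against siUBE2M (CISH and SPSB3 higher, DCAF4L1 and ASB14 lower), beside 7.84% of all genes. At an adjusted p under 0.05, 9 were higher and 8 lower (all genes 22.7% and 21.6%). For siNAE1 against siURM1, 1 was called (all genes 6.76%), with 12 higher and 6 lower (all genes 19.5% and 19.1%). For siUBE2M against siURM1, 3 were called (DCAF4L1 and ASB14 higher, SOCS1 lower; all genes 5.41%), with 10 higher and 9 lower (all genes 16.7% and 18.3%).

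Among other genes of the same pathways, none of the 11 core subunits of the CUL2, CUL4 and CUL5 ligases was called in any knockdown against control, where 13.9%, 7.11% and 7.62% of all genes were. The shares of all genes at an adjusted p under 0.05, for the counts of each list that follow, were 27.6% higher and 27.1% lower in siNAE1, 22.7% and 22.6% in siUBE2M, and 20.8% each way in siURM1. Of the core subunits 4 were higher and 2 lower in siNAE1, 3 and 5 in siUBE2M, and 4 and 2 in siURM1 (18.2% to 45.5% of the list). Of the cullins that hold DDB1, CUL4A was lower in all 3 (log2 fold change -0.22, -0.32 and -0.43), while CUL4B was lower in siUBE2M (-0.25, adjusted p 0.00115) and stood at -0.0078 in siNAE1 and 0.09 in siURM1 (adjusted p 0.923 and 0.307). Of 32 other receptors of CUL2, CUL4 and CUL5, 12 were higher and 9 lower in siNAE1, 14 and 9 in siUBE2M, and 9 and 8 in siURM1 (25% to 43.8%). The called ones were KLHDC1, a CUL5 receptor (-3.24, -1.56 and -1.54), RAB40A (-2.04 in siNAE1 and -1.04 in siUBE2M), DET1 (-1.09 in siNAE1) and ZYG11A, a CUL2 receptor of N-terminal glycine (1.76 in siUBE2M). KLHDC1 had 35 to 48 counts in control and 7, 2 and 1 in siNAE1.

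A further list held cytokine receptor, JAK and STAT genes, and also PIAS and PTPN genes. Of its 32 tested genes, 7 were higher and 5 lower in siNAE1, 8 and 3 in siUBE2M, and 6 and 6 in siURM1. These were 9.38% to 25% of the list, against 20.8% to 27.6% of all genes. Called were PTPN6 (1.02 in siUBE2M) and the growth hormone receptor GHR (-1.41 in siURM1). The median log2 fold change of the whole list was 0.12, 0.16 and 0.04. Of 25 p53 targets and nucleotide excision repair genes, 8 were higher and 10 lower in siNAE1, 6 and 8 in siUBE2M, and 4 and 10 in siURM1. These were 16% to 40% of the list, against 20.8% to 27.6% of all genes. FAS (1.21) and ZMAT3 (1.34) were called higher and ERCC4 (-1.04) lower in siNAE1, and GADD45A was called lower in all 3 (-1.36, -1.11 and -1.15).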

How the data were processed

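Polyadenylated RNA of 11 HEK293T libraries (NovaSeq X Plus, dUTP strand marking) was analysed. Per the labels, the authors used fastp, HISAT2 2.0.5 (GRCh38), featureCounts 1.5.0-p3 and DESeq2 1.20.0, and deposited raw counts per gene. The deposited FPKM values were calculated by the authors from these counts and the listed gene length. The annotation release and the strand setting of counting are not given in the sources used here, so where exons of genes on opposite strands overlap (24 members) reads may have been shared or separated by strand.

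Counts were tested with edgeR 4.0.16 (R 4.3.3, limma 3.58.1): filterByExpr, TMM, 1 quasi-likelihood fit of 4 groups, 18368 of 58735 genes, Benjamini-Hochberg adjustment over all of them. Thresholds were an adjusted p under 0.05 and, for a call, a log2 fold change of 1 or more in size. The biological coefficient of variation was 7.06%. Replicates are biological replicates per the labels, and p-values measure the spread between these libraries. Floors (3 counts) cover counting error only. The procedure was tested on simulated data in which only better counted genes were changed. Genes with as few counts as SOCS1, SOCS3 and SPSB3 were not covered.

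The members and gene lists were chosen with earlier results of these data known. Members named by rule were those called in any of the 6 comparisons, those with an adjusted p under 0.05 in 1 direction in all 3 knockdowns, the highest control FPKM of each family, and CISH, VHL, CRBN, DDB1 and DDB2. DCAF5, DCAF6, DCAF8, DCAF10, DCAF11, DCAF12, DCAF13, DCAF15, ASB6 and SOCS2, CUL4A and CUL4B among the listed genes, and neighbours on the opposite strand were named after their values were seen.

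Alternatives were RLE normalization, DESeq2 1.42.0, no filter, at least 10 counts in every library, only the groups compared, the replicate number as a replicate block, glmTreat, and leaving out each library. Scaling by library size only and canonical transcript lengths (GENCODE 44) were added after seeing the data. Plots were made with Python 3.11.15 and matplotlib 3.10.9. siRNA and protein sequences were not used here.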

Additional observations from a re-analysis of the deposited data

Results flagged for a closer look

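The effects of 2 knockdowns against the same control differed by more than 1 or ran in opposite directions for 7 members, tested as the direct difference between the knockdowns (log2 scale, edgeR, adjusted over all genes). Beyond a difference of 1, siNAE1 minus siUBE2M was -1.01 for ASB14 (adjusted p 0.00903), 1.12 for CISH (adjusted p 0.000108), -1.22 for DCAF4L1 (adjusted p 0.000123) and 1.17 for SPSB3 (adjusted p 0.0243). For siUBE2M minus siURM1 it was 1.68 for ASB14 (adjusted p 0.000629), 1.83 for DCAF4L1 (adjusted p 7.99e-06) and -1.95 for SOCS1 (adjusted p 0.0179). The values of SPSB3 and SOCS1 rest on few counts and were not called with DESeq2.

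DCAF8 and SPSB4 passed the threshold against control in opposite directions in 2 knockdowns. DCAF8 gave -0.44 for siNAE1 minus siUBE2M and 0.43 for siUBE2M minus siURM1 (adjusted p 3.05e-06 and 4.3e-05), and SPSB4 gave 1.37 for siNAE1 minus siURM1 (adjusted p 9.04e-09). The value of DCAF8 against control in siUBE2M missed the threshold in 6 of 18 alternatives. In both genes the libraries of the knockdowns concerned did not overlap. ENSG00000258465 lies on the same strand as DCAF8 over 29.9% of its exon bases, at a mean of 0.3333 counts in control.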

How the results depend on the processing

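Over 18 alternative fits of the 31 members described with values, no value with an adjusted p under 0.05 changed direction, and of 111 such values 37 missed the threshold in at least 1 alternative. The 8 values that changed direction, none past the threshold, did so mostly when 1 library was left out, namely ASB14 in siNAE1 (-0.54 to 0.239, higher without control replicate 1 or siNAE1 replicate 2 or 3), SOCS1 in siUBE2M (-0.518 to 0.384, higher without control replicate 3), SPSB3 in siUBE2M (-0.449 to 0.267, lower without control replicate 1 or 2 or siUBE2M replicate 2), DCAF13 in siNAE1 (-0.077 to 0.0405, higher without control replicate 2 or siNAE1 replicate 1 or 3), DCAF12 in siUBE2M (-0.0077 to 0.0966, lower without control replicate 2 or siUBE2M replicate 1), CRBN in siURM1 (-0.122 to 0.0574, higher without siURM1 replicate 1) and SPSB3 in siURM1 (-0.018 to 0.383, lower without siURM1 replicate 1). With library size scaling SPSB3 in siUBE2M was also -0.0409, DCAF12 in siUBE2M -0.0208 and DCAF11 in siURM1 -0.0147, and SPSB3 in siUBE2M was -0.021 with the replicate block.

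With glmTreat, which tests against the fold threshold itself, the called members were 1 in siNAE1 (CISH), 1 in siUBE2M (DCAF4L1) and 0 in siURM1, and 0 in each comparison between knockdowns. DESeq2 called 1 in siURM1. Leaving out 1 library gave 3 to 5 called members in siNAE1, 1 to 2 in siUBE2M (2 without control replicate 1, siUBE2M replicate 2 or 3, or either siURM1 library) and 1 to 3 in siURM1 (1 without control replicate 1 or 2), 2 to 4 for siNAE1 against siUBE2M (2 without siNAE1 replicate 2 or 3 or siUBE2M replicate 1), 1 to 2 for siNAE1 against siURM1 (2 without siNAE1 replicate 3) and 2 to 3 for siUBE2M against siURM1. At an adjusted p under 0.05 the ranges were 22 to 27, 18 to 25, 9 to 21 (9 without siURM1 replicate 1), 12 to 17, 12 to 20 and 13 to 19. The cause of these changes was not tested beyond the smaller number of libraries.

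Same-numbered libraries deviated from their group means with correlations of -0.0657 to 0.0787, and differently numbered ones with -0.101 to 0.073. No pairing by number was seen, and a weak one could be missed. With the replicate block 5 members were called in siNAE1 (ASB12 added), 1 in siUBE2M and 3 in siURM1, and 4 of the 111 values lost significance. The 5 tested members with at most 17 counts in every control library, ASB12, ASB18, SOCS1, SOCS3 and SPSB3, had the largest standard errors in each knockdown (0.36 to 0.74).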

Other observations

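DCAF8L1, an X-linked copy of DCAF8, was left out by the filter on low counts. It had 10, 8 and 13 counts in control, 0, 0 and 3 in siNAE1, 3, 2 and 1 in siUBE2M, and 3 and 9 in siURM1. The siNAE1 and siUBE2M libraries lay at or under the floor of 3 counts and below every control library, and 1 siURM1 library overlapped control. DESeq2 and edgeR without the filter called it lower in siNAE1 and not in siUBE2M. With either siURM1 library left out it passed the filter and was called lower in both.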
